A study of Homo sapiens with 18 samples.

Results

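Polysome RNA of YTHDF3-ADAR cells was compared with polysome RNA of YTHDF2-ADAR cells, which are both HEK293T cells, a human embryonic kidney line. The comparison used the 3 polysome libraries of each line, 6 of the 18 libraries of the study, chosen by their labels and not by any measured value. In both groups the genotype is a YTHDF-ADAR fusion, whose expression was switched on with doxycycline at 1 µg/mL over 24 h, and elongating ribosomes were then frozen on their mRNAs by cycloheximide at 100 µg/mL for 10 min. Lysates were spread on a sucrose gradient from 10% to 50%, the fractions with more than 2 ribosomes were pooled, and ribosomal RNA was removed before sequencing. YTHDF1-ADAR cells and the total RNA of each line make up the remaining libraries, and no library without a fusion was analysed here, so each difference is between 2 engineered lines. The labels do not say how the lines were derived, whether a line is 1 clone, or whether replicates were separate cultures, so p-values measure the spread between these libraries, which may be technical. Polysome libraries held 42699303, 53932472 and 51049683 counts over genes in YTHDF3-ADAR cells, against 52352528, 67549159 and 47751544 in YTHDF2-ADAR cells.

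YTHDF1, YTHDF2 and YTHDF3 are cytoplasmic proteins that bind N6-methyladenosine (m6A), the most common internal mark of mRNA. YTHDF2 is best known for bringing bound mRNAs to the CCR4-NOT deadenylase and so to decay, while YTHDF3 has been tied to both translation and decay. Fusion to an ADAR deaminase marks bound transcripts by A-to-I editing, and the polysome fraction holds mRNAs carried by several ribosomes. The comparison thus asks which mRNAs in the translated pool differed between the cells of the 2 fusions. Levels are given below as CPM, gene counts relative to library size after TMM scaling, and a gene was called when its Benjamini-Hochberg adjusted p in edgeR's quasi-likelihood test over 26804 genes was under 0.05; adjusted p-values below are from that test. In bulk RNA, fewer cells with a transcript and less of it per cell cannot be told apart.

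The fusion genes were read first, since they check the labels. YTHDF2 stood at 178, 133 and 113 CPM in YTHDF3-ADAR polysomes, against 311, 302 and 312 CPM in YTHDF2-ADAR polysomes, and was called lower with a log2 fold change of -1.13 ± 0.13 (SE, adjusted p = 5.92e-05). The groups did not overlap, and replicate 1 was the highest of the YTHDF3-ADAR libraries. YTHDF3 was at 89.1, 80.5 and 74.3 CPM in YTHDF3-ADAR polysomes and at 58.3, 60.4 and 64.5 CPM in YTHDF2-ADAR polysomes. The groups again did not overlap, and YTHDF3 was called higher with a log2 fold change of 0.41 ± 0.12 (adjusted p = 0.0224). Its call was lost without YTHDF3-ADAR replicate 2 (adjusted p = 0.0637), YTHDF2-ADAR replicate 1 (0.0804) or YTHDF2-ADAR replicate 2 (0.0703).

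ADARB1, which encodes the RNA-editing deaminase ADAR2 and lies on the plus strand at chr21:45073853-45226560 (GRCh38, ENSG00000197381), was among the 3 protein-coding genes with the largest rise, counting called genes whose groups did not overlap and whose mean log2 CPM reached 2. It had 1410, 1578 and 1530 CPM in YTHDF3-ADAR polysomes, against 32.5, 33.8 and 32.8 CPM in YTHDF2-ADAR polysomes, a 45.6-fold difference (log2 5.51 ± 0.16, adjusted p = 2.95e-12). YTHDF1-ADAR polysomes lay between them at a mean of 211 CPM. Counts of a transgene and of the endogenous gene are not separated in the deposited table. ADAR, which encodes ADAR1, was not called (adjusted p = 0.723) and overlapped, at 315, 294 and 255 CPM against 293, 303 and 298 CPM. YTHDF1 was not called either (log2 -0.40 ± 0.15, adjusted p = 0.0639), although without YTHDF3-ADAR replicate 1 it was (log2 -0.63, adjusted p = 0.000894), and ADARB2 was too low to test.

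One library has to be described before the rest. YTHDF3-ADAR replicate 1 correlated more closely with the YTHDF2-ADAR libraries (Pearson's r of log2 CPM across genes 0.991, 0.988 and 0.991) than with its own replicates 2 and 3 (0.981 and 0.980), which had r of 0.996 with each other. It carried the fusion pattern of its label, with ADARB1 at 1410 CPM. Over the genes called higher, its median difference from the YTHDF2-ADAR mean was 0.33 on the log2(CPM + 0.5) scale, against 0.88 and 0.87 in replicates 2 and 3. Over the genes called lower, the medians were -0.33, -0.60 and -0.54 in replicates 1, 2 and 3. Total RNA showed the same order, with 0.31, 0.91 and 0.90 over the genes higher on polysomes. For results that this library moves most, values without it are given beside them.

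**Figure D1:**
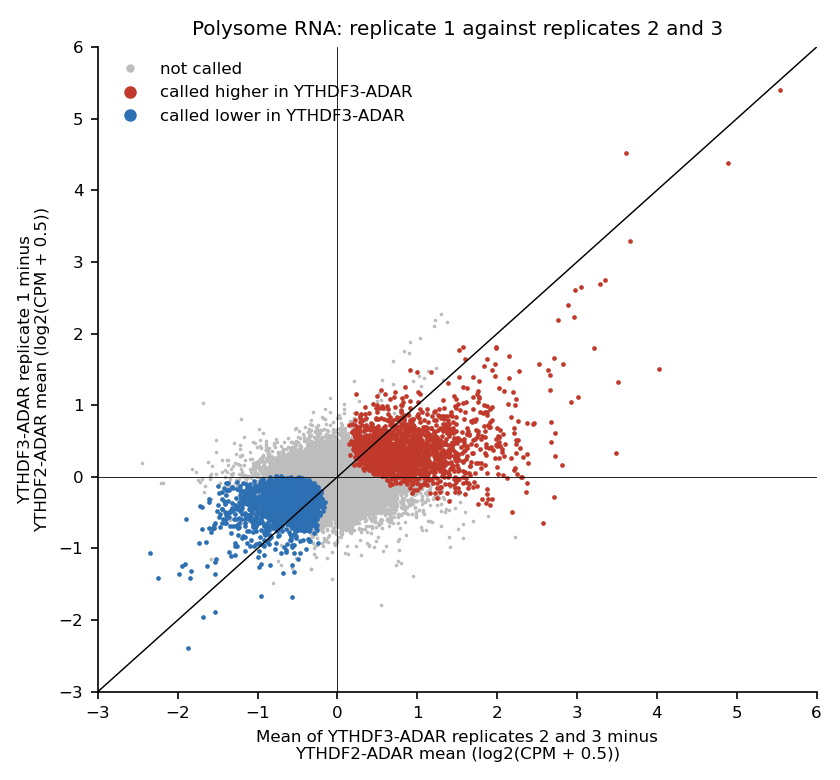
Each point is 1 of 14343 genes whose mean log2 CPM reached 2, placed by the mean difference of YTHDF3-ADAR replicates 2 and 3 from the YTHDF2-ADAR mean (x axis, log2(CPM + 0.5)) and by the difference of replicate 1 (y axis), and the diagonal marks equal differences. Genes called higher (red) lie mostly below the diagonal, with replicate 1 near a median of 0.33 where replicates 2 and 3 are near 0.88 and 0.87, while a few, such as ADARB1, lie close to it.

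On polysomes, 25.1% of the tested genes differed between the lines: 3634 (13.6%) were higher in YTHDF3-ADAR cells and 3093 (11.5%) were lower. Without scaling factors, which placed the median of all genes at 0.11 on the log2 scale and not at -0.02, 4742 were higher and 1333 lower. Protein-coding genes gave 2728 higher (17.4%) and 2050 lower (13.1%) of 15675. Large differences were mostly upward, since 1899 genes were at least 2-fold higher and 601 at least 2-fold lower. All 3 YTHDF3-ADAR libraries lay above all 3 YTHDF2-ADAR libraries for 2996 of the genes called higher, and below them for 2961 of those called lower, while over all tested genes 4420 (16.5%) lay above and 5258 (19.6%) below. In 632 of the genes called higher, replicate 1 lay within or under the YTHDF2-ADAR range, and in 98 of those called lower it lay within or over it. Without replicate 1 the counts were 5813 higher and 5611 lower. Leaving out any other of the 6 libraries gave between 1623 (without YTHDF3-ADAR replicate 2) and 2235 (without YTHDF2-ADAR replicate 3) higher and between 1142 and 1890 lower.

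Within the same limits on abundance and overlap, the mRNAs with the largest rises included a microtubule protein, receptors, retinoid and lipid carriers and a Notch target. MAP7D2, a microtubule-associated protein on the minus strand at chrX:20006713-20116907 (GRCh38, ENSG00000184368), had 16.7, 24.5 and 23.9 CPM in YTHDF3-ADAR polysomes, against 0.403, 0.264 and 0.331 CPM in YTHDF2-ADAR polysomes (log2 6.04 ± 0.24, adjusted p = 2.52e-10). TNFRSF10D, a decoy receptor for the death ligand TRAIL, had 14.6, 7.55 and 7.43 CPM, against 0.158, 0.132 and 0.175 CPM (5.99 ± 0.40, adjusted p = 1.91e-07), and here replicate 1 was the highest library. Neither gene came near to overlapping between the lines. OXCT1, the mitochondrial enzyme that starts ketone body use, had 15.8, 21.8 and 19.2 CPM, against 1.21, 0.844 and 1.48 CPM (4.02 ± 0.24, adjusted p = 5.33e-08). TGFBR2, the type II receptor for TGF-beta, had 11.03, 15.7 and 13.2 CPM in YTHDF3-ADAR polysomes and 1.30, 1.45 and 1.42 CPM in YTHDF2-ADAR polysomes (3.26 ± 0.20, adjusted p = 7.27e-08).

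In other genes of this group replicate 1 stood well apart from replicates 2 and 3. CRABP2, which carries retinoic acid to the nucleus, had 13.8, 87.6 and 76.4 CPM in YTHDF3-ADAR polysomes, against 4.28, 4.53 and 4.90 CPM in YTHDF2-ADAR polysomes (3.70 ± 0.63, adjusted p = 0.00116). G0S2, an inhibitor of triglyceride lipase, had 2.01, 21.8 and 22.1 CPM, against 1.63, 1.43 and 1.46 CPM (3.35 ± 0.74, adjusted p = 0.00561), so replicate 1 was only slightly above the YTHDF2-ADAR range. APOE, the apolipoprotein of lipid transport, had 11.1, 55.4 and 49.6 CPM, against 4.40, 3.71 and 4.30 CPM (3.23 ± 0.58, adjusted p = 0.00164). Without replicate 1 the log2 fold changes of CRABP2, G0S2 and APOE were 4.16, 3.86 and 3.67. HES5, a Notch-driven transcription repressor, showed the same order at 4.02, 11.3 and 11.8 CPM, against 1.05, 0.633 and 0.740 CPM. ZNF462, a zinc finger protein, NMNAT2, an enzyme of NAD synthesis in axons, and PRKCB, a protein kinase C, completed the 12 highest with log2 fold changes of 3.53, 3.34 and 3.17.

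The largest falls within these limits began with CCND1, which encodes cyclin D1, the partner of CDK4 and CDK6 in the G1 phase, on the plus strand at chr11:69641156-69654474 (GRCh38, ENSG00000110092). It had 21.0, 32.3 and 28.4 CPM in YTHDF3-ADAR polysomes, against 110, 115 and 112 CPM in YTHDF2-ADAR polysomes, 4.12-fold lower in YTHDF3-ADAR cells (log2 -2.04 ± 0.19, adjusted p = 3.95e-06). YTHDF1-ADAR polysomes were also low, at a mean of 16.7 CPM, so for this gene the YTHDF2-ADAR line was the high one. SNAI2, a transcription factor of epithelial to mesenchymal change, had 8.21, 10.8 and 9.36 CPM, against 35.5, 31.6 and 33.4 CPM (-1.82 ± 0.12, adjusted p = 1.15e-07). BCL6B, a transcription repressor, had 9.95, 7.20 and 5.52 CPM, against 26.7, 26.6 and 25.9 CPM (-1.81 ± 0.17, adjusted p = 4.24e-06). Among the 12 lowest were also 4 mRNAs of the mitochondrial genome, 4 zinc finger genes of chromosome 19 (ZNF426, ZNF551, ZNF416 and ZNF134, log2 from -1.46 to -1.29) and WDR38, whose protein carries WD repeats. All 24 of these highest and lowest genes were called in each of the 6 fits with 1 library left out.

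**Figure D2:**
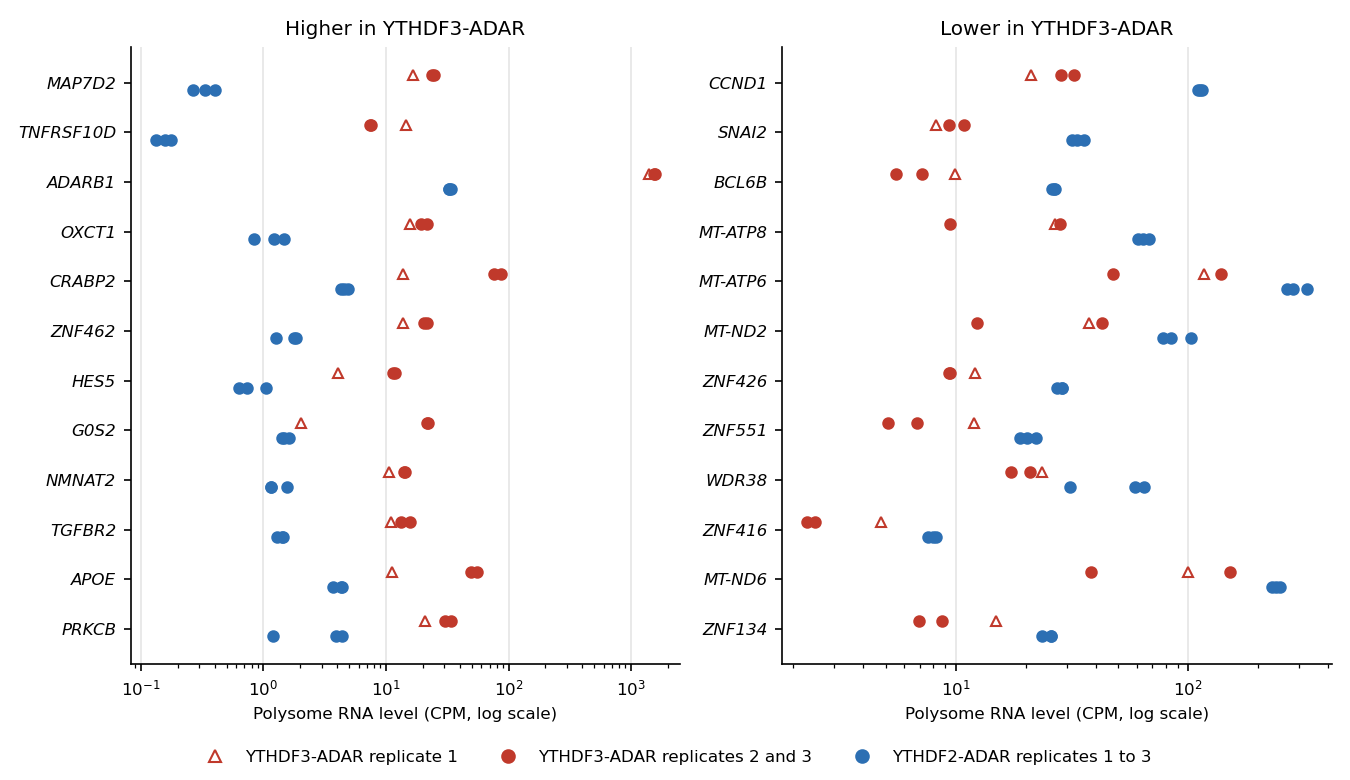
Polysome level in CPM (x axis, log scale) of the 12 protein-coding genes with the highest and the 12 with the lowest fold change, among called genes whose groups did not overlap and whose mean log2 CPM reached 2. Red points are the 3 YTHDF3-ADAR libraries, with replicate 1 as an open triangle, and blue points the 3 YTHDF2-ADAR libraries; in CRABP2, HES5, G0S2 and APOE the triangle lies toward the blue points, while in MAP7D2, ADARB1 and TGFBR2 it lies with the red ones.

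By CPM, which is not corrected for gene length, the most abundant mRNAs called higher after ADARB1 included genes of amino acid and lipid synthesis. PHGDH, the entry enzyme of serine synthesis, had 413, 653 and 577 CPM in YTHDF3-ADAR polysomes, against 292, 334 and 318 CPM in YTHDF2-ADAR polysomes (log2 0.80 ± 0.22, adjusted p = 0.0145). GLUL, glutamine synthetase, YARS1, the tyrosyl-tRNA synthetase, and FASN, fatty acid synthase, had log2 fold changes of 0.32, 0.42 and 0.52. In FASN the lines overlapped, with 342, 609 and 538 CPM against 343, 355 and 340 CPM. All 4 calls were lost when single libraries were left out, among them YTHDF3-ADAR replicate 2 (adjusted p = 0.0797 for PHGDH, 0.0804 for GLUL, 0.158 for YARS1 and 0.158 for FASN) and YTHDF2-ADAR replicate 1 (adjusted p = 0.0583 for PHGDH, 0.0802 for GLUL, 0.136 for YARS1 and 0.0748 for FASN). The most abundant mRNAs called lower included RPL8 and HNRNPA1, described below with the ribosomal group, MT-ND5 of the mitochondrial genome, whose call was lost without YTHDF2-ADAR replicate 1 (adjusted p = 0.0563), and PTMA, prothymosin alpha, at 888, 756 and 622 CPM against 1233, 1095 and 1243 CPM (-0.66 ± 0.15, adjusted p = 0.00691).

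The mRNAs of the cytosolic ribosome were all below 0 in their fold change. Their 5′ ends often carry a terminal oligopyrimidine (TOP) run, a C at the first base followed by further pyrimidines, through which mTOR signalling controls their translation. Windows of 30 bases around the transcript start are shown for 5 mRNAs that were called lower, for EIF4A2, which was called higher, and for GAPDH, a glycolytic enzyme that was not called (adjusted p = 0.176), as a start without the run. They are from RefSeq (GRCh38.p14), 5′ to 3′ on the transcript's strand, from 8 bases before the first base to 22 bases from it on, with the pyrimidine run in capitals.
RPS18, chr6:33272067-33272096, plus strand: cttccgctCTCTCTTCCacaggaggcctac
RPS12, chr6:132814561-132814590, plus strand: gatgaggcCTCTTTCCCTgccgccgccgag
RPL37A, chr2:216498836-216498865, plus strand: gtctcttcCTTTCTgggctcggacctaggt
RPS6, chr9:19380215-19380244, minus strand: agttggccCTCTTTTCCgtggcgcctcgga
TPT1, chr13:45341162-45341191, minus strand: gagtcggcCTTTTCCgcccgctcccccctc
EIF4A2, chr3:186783569-186783598, plus strand: gccgctgtCTTTTCagtcgggcgctgagtg
GAPDH, chr12:6535256-6535285, plus strand: gcatccctgtccggatgctgcgcctgcggt
The search was for C at the listed start followed by at least 4 bases that are C or T, on the transcript's strand only, and 5.1% of the 27305 genes in the table had it at a listed start.

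Of 79 cytosolic ribosomal protein mRNAs, 57 were lower on YTHDF3-ADAR polysomes and none was higher, against 11.5% of all genes lower. RPS18, a small-subunit protein (log2 -1.02 ± 0.19, adjusted p = 0.00188), had 379, 193 and 335 CPM in YTHDF3-ADAR polysomes, against 651, 584 and 605 CPM in YTHDF2-ADAR polysomes. RPL27A, a large-subunit protein, had 291, 130 and 242 CPM, against 467, 415 and 436 CPM (-0.99 ± 0.20, adjusted p = 0.00345). In both genes each YTHDF3-ADAR library lay under each YTHDF2-ADAR library, and replicate 2 was the lowest. RPL8, the most abundant by CPM, had 1516, 924 and 1167 CPM, against 1950, 1763 and 1837 CPM (-0.62 ± 0.15, adjusted p = 0.00917). The 22 members that were not called ran from RPL39 at -0.63 to RPL3 at -0.07. The median was -0.62, with 31 of 47 large-subunit members (median -0.57) and 26 of 32 small-subunit members (median -0.67) lower, against a median of 0.02 over all protein-coding genes. Ribosomal protein mRNAs have many processed pseudogenes, and counting can split the reads that match both.

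Replicate 2 was the lowest YTHDF3-ADAR library for each of the 79 members, whereas it was the lowest for 2676 of the 15675 protein-coding genes. The medians of the group were -0.27, -1.09 and -0.55 in YTHDF3-ADAR replicates 1, 2 and 3 on the log2(CPM + 0.5) scale, so all 3 were below 0 but spread widely. Single libraries and the fit changed the number of calls. It was 22 of 79 without YTHDF3-ADAR replicate 2 (median -0.42), 28 without YTHDF2-ADAR replicate 1 (median -0.56), 72 without YTHDF3-ADAR replicate 1 (median -0.80), and 6 in a fit of the 6 libraries alone (median -0.58). YTHDF1-ADAR polysomes stood with YTHDF2-ADAR ones, at a median of -0.02 from the YTHDF2-ADAR mean.

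Total RNA of the same lines did not show this shift, with a median of 0.08, 5 members higher and 2 lower. By library, the medians in total RNA were -0.24, 0.25 and 0.21 in YTHDF3-ADAR replicates 1, 2 and 3, so replicate 1 was about as low in total RNA as on polysomes (-0.27), while replicates 2 and 3 were above 0 in total RNA and below 0 on polysomes. RPS18, for example, had a log2 fold change of -0.04 in total RNA (adjusted p = 0.879). All 79 members were lower in polysome than in total RNA when the 2 fold changes were set against each other, by a median of -0.70, while that median was -0.06 over all protein-coding genes. No gene passed the test of this difference itself (edgeR, 0 of 26804 genes called, 801 at an unadjusted p under 0.05; DESeq2 called 0), so no single ribosomal protein mRNA was shown to differ between the fractions. That test did not pair polysome and total libraries by replicate number, although YTHDF3-ADAR replicate 1 stood apart in both fractions. A paired fit was not run, so the absence of calls does not show that the fractions were alike.

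Within the ribosomal proteins, the shift was of like size with and without the sequence shown above. The 47 with a pyrimidine start had a median of -0.63 with 35 lower, the 16 with a listed start lacking it a median of -0.53 with 10 lower, and the 16 with no entry a median of -0.60 with 12 lower. Outside the ribosomal proteins, 815 protein-coding genes with a pyrimidine start had a median of 0.04 with 150 higher and 99 lower (12.1%), and 11231 genes without it a median of 0.01 with 1887 higher and 1422 lower (12.7%). Among genes of at least 100 CPM the medians were -0.18 with the run (141 genes) and -0.18 without it (1280 genes). Of these genes 22.7% and 21.6% were lower. Genes outside the ribosome thus had like polysome medians with and without the run. Their medians in total RNA were 0.14 with it and 0.03 without it, and -0.05 and -0.16 at 100 CPM or more. The gap between the fractions was not tested by start.

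Elongation factors and other mRNAs of the TOP class were mixed, with 6 of 22 lower (27.3%, against 13.1% of protein-coding genes) and 1 higher (median -0.29). With 1 library left out, from 2 (without YTHDF3-ADAR replicate 2) to 12 (without replicate 1) were lower. In total RNA the median of these 22 was 0.19, with 3 higher and none lower. Library medians in YTHDF3-ADAR replicates 1, 2 and 3 were -0.16, -0.52 and -0.32 on polysomes and -0.13, 0.38 and 0.39 in total RNA. EEF1B2, an exchange factor of translation elongation, had 254, 165 and 194 CPM, against 337, 321 and 327 CPM (-0.68 ± 0.14, adjusted p = 0.00377). TPT1, the translationally controlled tumour protein, had 296, 191 and 224 CPM in YTHDF3-ADAR polysomes, against 388, 326 and 356 CPM in YTHDF2-ADAR polysomes (-0.59 ± 0.16, adjusted p = 0.0145). TPT1 lost its call without YTHDF3-ADAR replicate 2 (adjusted p = 0.0819), YTHDF3-ADAR replicate 3 (0.0556) or YTHDF2-ADAR replicate 1 (0.0598). HNRNPA1, an RNA-binding protein of splicing, had a log2 fold change of -0.49 ± 0.13 (adjusted p = 0.0145) and lost its call without YTHDF3-ADAR replicate 2 (0.0652) or YTHDF2-ADAR replicate 3 (0.0552). EIF4A2, an RNA helicase of initiation, went the other way, at 139, 176 and 198 CPM against 124, 107 and 115 CPM (0.57 ± 0.13, adjusted p = 0.00757). Of 32 translation initiation factors 5 were lower (15.6%, near the share over protein-coding genes), such as EIF4E2 (-0.63), and 1 was higher, EIF3D (0.67), a subunit of eIF3. Of 38 ribosome biogenesis genes 12 were lower (31.6%), among them the nucleolar proteins NOP16 (-0.82) and NOP2 (-0.81), and GNL3 (0.46) was higher, with a median of -0.37 on polysomes and -0.37 in total RNA. With 1 library left out, from 2 to 20 of the initiation factors and from 3 to 28 of the biogenesis genes were lower, the highest counts again without YTHDF3-ADAR replicate 1. NOP16 and NOP2 lost their calls without YTHDF3-ADAR replicate 2 (adjusted p = 0.0671 and 0.0808) or replicate 3 (0.0604 and 0.0747), NOP2 also without YTHDF2-ADAR replicate 1 (0.052), and GNL3 did so in 4 of the 6 fits (highest adjusted p = 0.112).

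**Figure D3:**
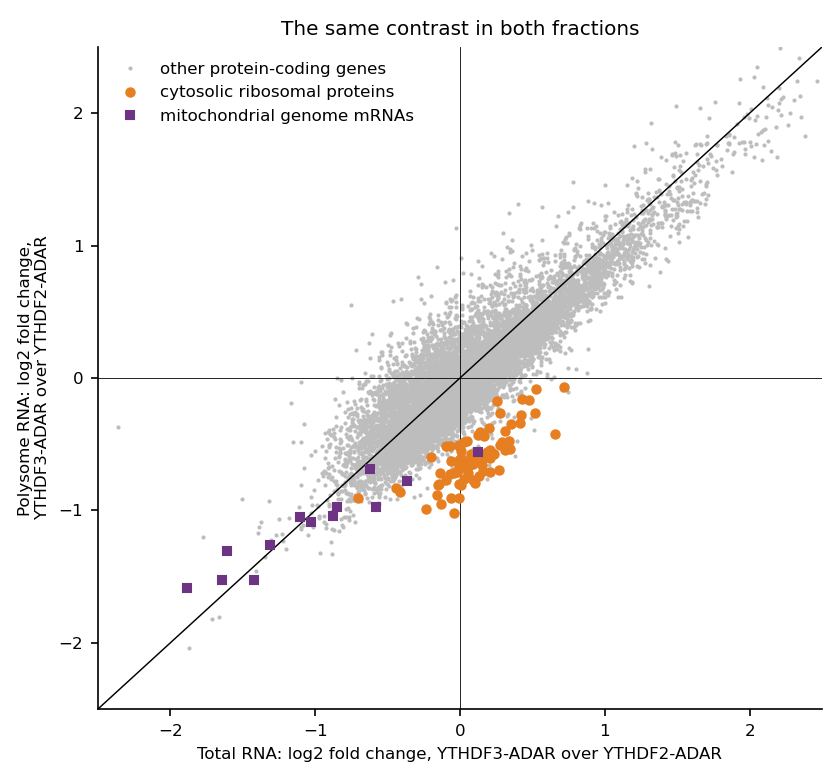
Log2 fold change of YTHDF3-ADAR over YTHDF2-ADAR in total RNA (x axis) and in polysome RNA (y axis) for protein-coding genes whose mean log2 CPM reached 2, with a diagonal for equal change; 26 genes lie outside the axes. Cytosolic ribosomal proteins (orange) lie below the diagonal, around 0.08 in total and -0.62 in polysome RNA. Most mitochondrial genome mRNAs (purple) lie nearer to it, but MT-CO1, MT-CO2 and MT-CO3 lie below it. MT-CO1 lies furthest below, at 0.13 in total and -0.56 in polysome RNA.

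The mRNAs encoded by mitochondrial DNA, which are translated inside the organelle and not by the ribosomes that define a polysome gradient, were also lower in YTHDF3-ADAR libraries. Of 13, 11 were lower and none was higher, with a median of -1.05 on polysomes and -1.03 in total RNA, where 9 were lower. MT-ATP8, a subunit of ATP synthase whose gene overlaps MT-ATP6 and may share its reads, had 26.7, 9.41 and 28.0 CPM in YTHDF3-ADAR polysomes, against 67.9, 60.8 and 64.0 CPM in YTHDF2-ADAR polysomes (log2 -1.59 ± 0.34, adjusted p = 0.00468). MT-ND2, a complex I subunit, had 37.3, 12.4 and 42.4 CPM, against 102, 77.5 and 84.7 CPM (-1.52 ± 0.35, adjusted p = 0.00662). All YTHDF3-ADAR libraries were below all YTHDF2-ADAR libraries for these genes, and replicate 2 was the lowest for each of the 13. MT-CO1 and MT-CYB were not called, and YTHDF3-ADAR replicate 3 was high in both, at 2044 and 677 CPM against ranges of 1256 to 1917 and 488 to 624 CPM in YTHDF2-ADAR polysomes. The ribosomal RNA MT-RNR2 was spread in the same way, at 361, 296 and 1441 CPM against 882, 714 and 776 CPM, and was not called. In total RNA, by contrast, the 2 mitochondrial ribosomal RNAs were both called lower, with a median of -3.07. Their library medians there were -2.74, -3.30 and -3.15 in YTHDF3-ADAR replicates 1, 2 and 3. Fewer mitochondrial mRNAs were called in some fits: 7 without YTHDF3-ADAR replicate 2 or without YTHDF2-ADAR replicate 1, 7 with no filter on low counts, and 3 in the fit of the 6 libraries alone.

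Nuclear genes of mitochondria moved in the same direction but less. Of 79 respiratory chain subunits 26 were lower (32.9%, against 13.1% of protein-coding genes) and 2 higher (2.53%, against 17.4%). Their median was -0.20 on polysomes and -0.09 in total RNA. NDUFS6 of complex I was at -0.74 and ATP5ME of ATP synthase at -0.66, while UQCRC1 of complex III (0.38) was among the higher ones. Of 78 mitochondrial ribosomal proteins 26 were lower (33.3%), such as MRPL18 (-0.74), and 4 were higher (5.13%), of which MRPL10 (0.66) and MRPL45 (0.53) lie on chromosome 17. The median of these 78 was -0.25 on polysomes and -0.16 in total RNA. Among genes of at least 100 CPM outside the cytosolic ribosomal proteins, 22.7% with a pyrimidine start and 21.6% without it were lower. The proteasome had 4 of 31 lower, a share of 12.9% close to the 11.5% over all genes, and none higher. With 1 library left out, from 12 (without YTHDF3-ADAR replicate 2) to 32 (without replicate 1) respiratory chain subunits and from 8 to 48 mitochondrial ribosomal proteins were lower, in the same 2 fits, and from 1 (without YTHDF3-ADAR replicate 3) to 18 (without replicate 1) proteasome subunits. UQCRC1 lost its call without YTHDF3-ADAR replicate 2 (adjusted p = 0.0555), YTHDF2-ADAR replicate 1 (0.0541) or YTHDF2-ADAR replicate 3 (0.0517).

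Groups tied to YTHDF2 function were examined because that fusion differs between the lines. Of 33 genes of decapping and exonucleolytic decay 10 were lower (30.3%, against 13.1% of protein-coding genes) and none was higher (median -0.29), among them LSM6, a subunit of the Lsm ring that binds the 3′ end of shortened mRNAs, at 18.7, 16.2 and 18.3 CPM in YTHDF3-ADAR polysomes, against 34.0, 29.1 and 32.03 CPM in YTHDF2-ADAR polysomes (-0.84 ± 0.11, adjusted p = 0.000195). LSM7, of the same ring, had a log2 fold change of -0.69. Of 17 genes of CCR4-NOT and its partners 4 were lower (23.5%), among them the deadenylase CNOT7 (-0.50), and CNOT10 (0.29) was higher. CNOT7 lost its call without YTHDF3-ADAR replicate 2 (adjusted p = 0.0553), and CNOT10 did so without any one of 5 libraries (highest adjusted p = 0.154). Of the m6A writers and erasers 5 of 15 were lower (33.3%) and 1 higher. WTAP, the adaptor of the methyltransferase, had 113, 88.9 and 81.4 CPM, against 169, 163 and 163 CPM (-0.80 ± 0.13, adjusted p = 0.000705), and ZCCHC4, which methylates 28S ribosomal RNA, was higher at 0.74 ± 0.10 (adjusted p = 0.000222). With 1 library left out, from 3 (without YTHDF2-ADAR replicate 1) to 17 (without YTHDF3-ADAR replicate 1) decay genes, from 0 (without YTHDF3-ADAR replicate 2) to 6 (without replicate 1) CCR4-NOT genes and from 1 to 6 writers and erasers, in these same 2 fits, were lower.

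Of 3 mRNAs often cited as YTHDF2 decay targets, 2 were lower on YTHDF3-ADAR polysomes (66.7%, against 13.1% of protein-coding genes) and none was higher. With 1 library left out, 1 or 2 were lower. Their median was -0.43 on polysomes and -0.30 in total RNA, where 2 were also lower. YTHDF1-ADAR polysomes lay below the YTHDF2-ADAR mean as well, at a median of -0.32. CREBBP, a histone acetyltransferase, was lower at -0.43 ± 0.15 (adjusted p = 0.0425), a call that was lost in 5 of the 6 fits with 1 library left out and kept without YTHDF3-ADAR replicate 1. SON, a splicing cofactor, was not called (-0.21 ± 0.13, adjusted p = 0.243). None of the 13 other m6A readers was called in the fit of all libraries, while without YTHDF3-ADAR replicate 1 there were 2 higher and 4 lower, among them HNRNPA2B1, a nuclear RNA-binding protein (log2 -0.55, adjusted p = 0.0107).

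Interferon and matrix genes were more often higher than lower, with the larger differences in replicates 2 and 3. Of 23 tested genes of extracellular matrix and TGF-beta signalling 8 were higher, against 13.6% of all genes, and none was lower, with library medians of -0.10, 0.91 and 0.64 in YTHDF3-ADAR replicates 1, 2 and 3. COL9A3, a collagen IX chain, had 2.92, 11.8 and 10.7 CPM, against 2.00, 1.69 and 2.35 CPM (2.08 ± 0.48, adjusted p = 0.00653). Without replicate 1, 14 members were higher, and with any 1 of the other 5 libraries left out 4 or 5 were. Of 20 tested interferon-stimulated and double-stranded RNA sensing genes 8 were higher and 1 lower (library medians 0.08, 0.41 and 0.48). Without any 1 library the number higher was from 6 to 10, and 1 gene was lower in each of these fits. ISG20, an exonuclease at 0.630, 0.428 and 0.746 CPM against 1.61, 2.68 and 1.54 CPM, was the lower one over all libraries (-1.70 ± 0.29, adjusted p = 0.0011).

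Of 21 stress mRNAs of the ATF4 pathway 4 were higher (19%, near the 17.4% of protein-coding genes) and 1 lower, with library medians of -0.23, 0.61 and 0.62, so replicate 1 was on the other side of 0. TRIB3, a pseudokinase induced by ATF4, had 25.2, 42.5 and 38.7 CPM in YTHDF3-ADAR polysomes, against 13.9, 14.6 and 15.3 CPM in YTHDF2-ADAR polysomes (1.28 ± 0.23, adjusted p = 0.00179). ASNS, asparagine synthetase, overlapped, at 68.5, 349 and 305 CPM against 75.7, 85.2 and 94.3 CPM (1.503 ± 0.501, adjusted p = 0.0387). It was called in 1 of the 6 fits with 1 library left out, the one without YTHDF3-ADAR replicate 1 (log2 1.94), and its highest adjusted p in the others was 0.184. Without replicate 1, 10 of the 21 were higher, and with any 1 of the other 5 libraries left out 2 or 3 were. ATF5, whose translation depends on upstream open reading frames, fell with a log2 fold change of -0.77 ± 0.23 (adjusted p = 0.0237), which no longer passed without YTHDF3-ADAR replicate 2 (0.123), YTHDF3-ADAR replicate 3 (0.105), YTHDF2-ADAR replicate 1 (0.0771) or YTHDF2-ADAR replicate 2 (0.0525).

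Neuronal and cell cycle genes went both ways, where 17.4% of all protein-coding genes were higher and 13.1% lower. Of 20 tested neuronal cytoskeleton genes, a class that HEK293T cells are known to express, 5 were higher (25%) and 1 lower (5%). All 3 YTHDF3-ADAR library medians were above 0 (0.63, 0.56 and 0.22). CRMP1, a collapsin response mediator, had 28.4, 48.8 and 43.7 CPM, against 15.04, 15.3 and 14.7 CPM (1.43 ± 0.21, adjusted p = 0.00038), while its relative DPYSL3 was lower (-0.87 ± 0.16, adjusted p = 0.00198). From 2 (without YTHDF2-ADAR replicate 2 or 3) to 5 (without YTHDF3-ADAR replicate 1) neuronal genes were higher with 1 library left out. Of 19 G1 cyclins and kinases 5 were lower (26.3%), CCND1 first, and 2 were higher (10.5%), E2F2 (0.74) and the CDK inhibitor CDKN1C (1.15). From 2 to 6 of them were lower with 1 library left out, and CDKN1C lost its call without YTHDF3-ADAR replicate 2 (adjusted p = 0.0964) or any 1 YTHDF2-ADAR library (0.0506 to 0.0559). Of 20 p53 targets 7 were lower (35%), among them PHLDA3 (-1.05 ± 0.14, adjusted p = 0.000161) and the nuclease AEN (-0.91 ± 0.12, adjusted p = 0.000149), and 2 were higher (10%). TOP2A, the DNA topoisomerase of mitosis, was at 93.6, 342 and 265 CPM against 100, 92.6 and 102 CPM, so replicate 1 lay within the YTHDF2-ADAR range, and its call (1.25 ± 0.42, adjusted p = 0.0389) held in 1 of the 6 fits with 1 library left out, the one without that replicate.

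Single histone genes also went both ways, with 4 of 56 replication-dependent genes higher (7.14%, against 17.4% of protein-coding genes) and 10 lower (17.9%, against 13.1%). With 1 library left out, 2 to 7 were higher and 5 to 9 lower, in a family whose near-identical copies may share reads. H3C6 had 13.5, 20.5 and 20.1 CPM in YTHDF3-ADAR polysomes, against 5.84, 5.94 and 6.03 CPM in YTHDF2-ADAR polysomes (1.60 ± 0.15, adjusted p = 3.95e-06), and H2BC11 had 242, 361 and 413 CPM, against 675, 564 and 618 CPM (-0.87 ± 0.19, adjusted p = 0.00471). Of long noncoding RNAs, MALAT1, a nuclear speckle RNA, had 201, 207 and 336 CPM, against 433, 480 and 510 CPM (-0.94 ± 0.24, adjusted p = 0.0117), and lost its call without YTHDF3-ADAR replicate 2 (0.0645). LINC01694 was among the highest noncoding RNAs (2.30 ± 0.35, adjusted p = 0.000549).

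Chaperones and splicing factors had more lower than higher calls, where 13.1% of all protein-coding genes were lower. Among genes of at least 100 CPM outside the ribosomal proteins, 22.7% with a pyrimidine start and 21.6% without it were lower. The shares of heat shock and SR genes were near these. Of 25 chaperones and stress genes of the endoplasmic reticulum 7 were lower (28%) and 2 higher, led by HSPA5 (BiP), at 200, 172 and 122 CPM in YTHDF3-ADAR polysomes, against 342, 264 and 297 CPM in YTHDF2-ADAR polysomes (-0.87 ± 0.21, adjusted p = 0.0091), and CANX, the lectin chaperone calnexin (-0.70 ± 0.14, adjusted p = 0.0036). Of 25 heat shock genes and cochaperones 6 were lower (24%), with HSPE1, the mitochondrial co-chaperonin, at 114, 96.8 and 86.0 CPM against 186, 181 and 197 CPM (-0.93 ± 0.18, adjusted p = 0.00259). HSPB1, a small heat shock protein, was the 1 member that was higher (1.06 ± 0.25, adjusted p = 0.00844). Of 14 SR proteins, which define exons in splicing, 3 were lower (21.4%), among them TRA2B (-0.62 ± 0.19, adjusted p = 0.0256), and the library medians were -0.08, -0.73 and -0.88. Replicate 1 stayed near 0 in this group, and 12 SR genes were lower without it, against 1 when any other library was left out, and TRA2B kept its call in that 1 fit of the 6. From 3 to 14 genes of each chaperone group were lower with 1 library left out.

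The remaining groups had calls in both directions, where 17.4% of all protein-coding genes were higher and 13.1% lower. Of 24 mitotic genes 4 were higher (16.7%, near the share over protein-coding genes) and 1 lower (4.17%). CDC25B, a phosphatase that starts mitosis, was at 71.7, 72.7 and 68.2 CPM in YTHDF3-ADAR polysomes, against 38.4, 40.9 and 38.5 CPM in YTHDF2-ADAR polysomes (0.85 ± 0.10, adjusted p = 7.65e-05). Of 22 replication licensing genes 2 were higher (9.09%) and 1 lower (4.55%), with PCNA, the sliding clamp, at 0.40 ± 0.09 (adjusted p = 0.00698) and GINS1, of the replicative helicase, at -0.62 ± 0.13 (adjusted p = 0.00411). These 3 calls held in all 6 fits with 1 library left out. Of 28 glycolysis and hypoxia genes 4 were higher (14.3%), first ENO2, neuronal enolase (1.76 ± 0.37, adjusted p = 0.00427), and 2 lower (7.14%). Of 28 immediate early genes 2 were higher (7.14%) and 6 lower (21.4%), with JUN at -0.57 ± 0.14 (adjusted p = 0.0102). Selenoprotein mRNAs had 5 of 23 higher (21.7%) and 6 lower (26.1%), and HOX genes 4 of 38 higher (10.5%) and 2 lower (5.26%). Without YTHDF3-ADAR replicate 1 many more of these genes were lower, with 7 mitotic, 5 licensing, 13 glycolysis and 12 HOX genes. Without YTHDF3-ADAR replicate 2, 1 selenoprotein mRNA, 3 immediate early genes and no glycolysis gene were lower. PVT1, a noncoding RNA beside MYC, had 8.71, 5.62 and 8.78 CPM, against 15.1, 16.7 and 14.1 CPM (-0.99 ± 0.14, adjusted p = 0.000275).

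**Figure D4:**
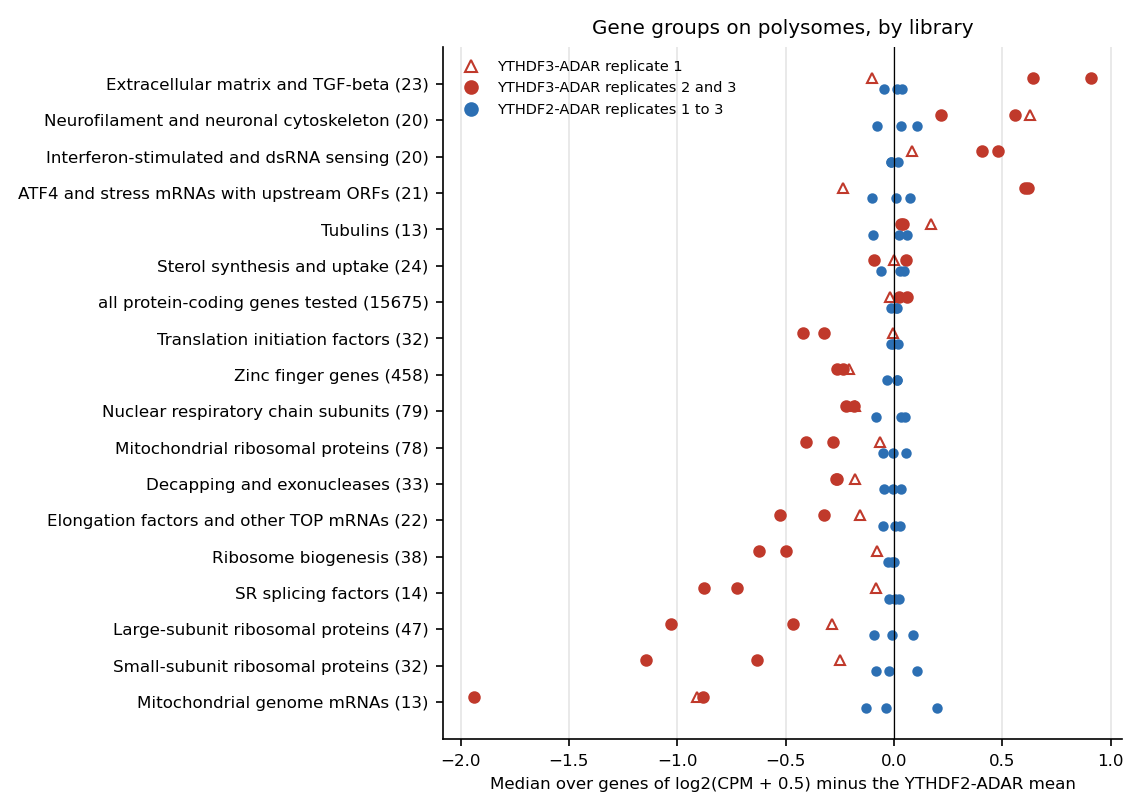
Median over the tested genes of each group (number in brackets) of log2(CPM + 0.5) minus the YTHDF2-ADAR mean (x axis), for the 3 YTHDF3-ADAR libraries (red, replicate 1 as an open triangle) and the 3 YTHDF2-ADAR libraries (blue). For ribosomal proteins all red points are below 0 and replicate 2 is lowest, while for matrix and ATF4 genes replicate 1 is at -0.10 and -0.23 and replicates 2 and 3 are between 0.61 and 0.91.

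Zinc finger genes, the largest family of transcription factors, were lower as a group. Of 458 tested, 131 were lower (28.6%, against 13.1% of protein-coding genes) and 33 higher (7.21%, against 17.4%), with a median of -0.24. The YTHDF3-ADAR library medians were -0.21, -0.23 and -0.26, so replicate 1 did not stand apart on polysomes. In total RNA the median was -0.29, with library medians of -0.065, -0.395 and -0.329, so replicate 1 stood apart there. The number lower ranged from 46 with the replicate number as a block to 199 with sample weights, and was 65 without YTHDF3-ADAR replicate 2, 73 without replicate 3, 83 without YTHDF2-ADAR replicate 1 and 73 without scaling factors. ZNF426 had 12.1, 9.37 and 9.47 CPM in YTHDF3-ADAR polysomes, against 28.8, 28.8 and 27.2 CPM in YTHDF2-ADAR polysomes (-1.46 ± 0.13, adjusted p = 2.16e-06). ZNF91, a repressor of retroelements, was higher at 9.87, 14.3 and 13.7 CPM against 1.26, 1.44 and 1.71 CPM (3.10 ± 0.43, adjusted p = 0.000244).

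Fold changes were also read by the order of genes on the chromosomes. How far position goes with the fall of zinc finger genes was not tested. Protein-coding genes of each chromosome were split into blocks of about 50 neighbours, 303 in all, after a difference between chromosomes had been seen, so the values below are descriptions with no test. Block medians ran from -0.74 to 0.63 with a median of 0.00, and had r of 0.81 with the block medians in total RNA, across blocks from the same lines. The lowest block was the last of chromosome 19 (GRCh38, chr19:57363551-58573575, from TRAPPC2B to MZF1), where 40 of 60 genes were lower and 41 carry a zinc finger name. Its YTHDF3-ADAR library medians were -0.31, -0.85 and -0.85. In YTHDF1-ADAR polysomes this block was also below the YTHDF2-ADAR mean, with a median of -0.40. The remaining 1100 genes of chromosome 19 had a median of -0.03, with 188 lower and 191 higher. On chromosome 5 a block with 39 protocadherin genes (chr5:140564828-141512981) had 22 of 50 genes lower and none higher, such as PCDHGA11 (-1.09 ± 0.19, adjusted p = 0.0014); reads of its overlapping gene models may be shared between them. Over 78 cadherin and protocadherin genes of all chromosomes 26 were lower (33.3%, against 13.1% of protein-coding genes). Fewer were lower in other fits, 3 without YTHDF3-ADAR replicate 2, 6 without YTHDF3-ADAR replicate 3, 5 without YTHDF2-ADAR replicate 1 and 4 in the fit of the 6 libraries alone.

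Other chromosomes leaned upward. On chromosome 22, 152 of 381 protein-coding genes were higher (39.9%, against 17.4% of all protein-coding genes) and 5 were lower (1.31%, against 13.1%), with a median of 0.26. On polysomes replicate 1 was not the weakest library, at 0.30 against 0.21 and 0.20 in replicates 2 and 3. The median in total RNA was 0.42, where replicate 1 was the weakest, at 0.285 against 0.473 and 0.399. Without replicate 1 the counts were 155 higher and 44 lower, and with 1 of the other 5 libraries left out they were 87 to 106 higher and 2 lower. EIF3D, SREBF2, the sterol regulator, and CDC45, a subunit of the replicative helicase, are among its genes, at 0.67, 0.55 and 0.52. SREBF2 lost its call without any one of 5 libraries (highest adjusted p = 0.0931).

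Chromosomes 3 and 17 changed along their length. On chromosome 3 the first 500 genes (chr3:2098813-113947174) had 181 higher and 9 lower (median 0.28), and the remaining 370 had 50 higher and 51 lower (median -0.02). On chromosome 17 the first 650 genes (chr17:142789-50555852) had 224 higher and 14 lower (median 0.25), and the remaining 308 had 31 higher and 84 lower (median -0.14). All 3 YTHDF3-ADAR libraries showed both changes, with medians of 0.24, 0.28 and 0.24 in the first part of chromosome 3 and of 0.23, 0.22 and 0.20 in that of chromosome 17, and total RNA had medians of 0.30 and 0.34 there. Chromosome 1 had 407 of 1565 genes higher and 74 lower (median 0.15), and a single block of chromosome 11 (chr11:16613132-30586872) had 25 of 50 genes higher and none lower (median 0.63). On chromosome 20 the first 100 genes (chr20:270863-18188387) had a median of 0.34 and the next 50 (chr20:18288283-32238658) of -0.37, and YTHDF1-ADAR polysomes lay on the same side of the YTHDF2-ADAR mean, with medians of 0.50 and -0.34. With 1 library left out, the number higher ranged from 115 to 289 of 870 genes over all of chromosome 3, from 135 to 299 of 958 over all of chromosome 17 and from 190 to 507 over chromosome 1, lowest without YTHDF3-ADAR replicate 2 and highest without replicate 1. The number lower ranged from 20 to 130 on chromosome 3 (60 with all libraries), from 44 to 205 on chromosome 17 (98) and from 20 to 256 on chromosome 1, in the same fits. Over the protein-coding genes outside chromosomes 1, 3, 17 and 22 and the mitochondrial genome, 1683 of 11888 were higher (14.2%) and 1802 lower (15.2%).

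**Figure D5:**
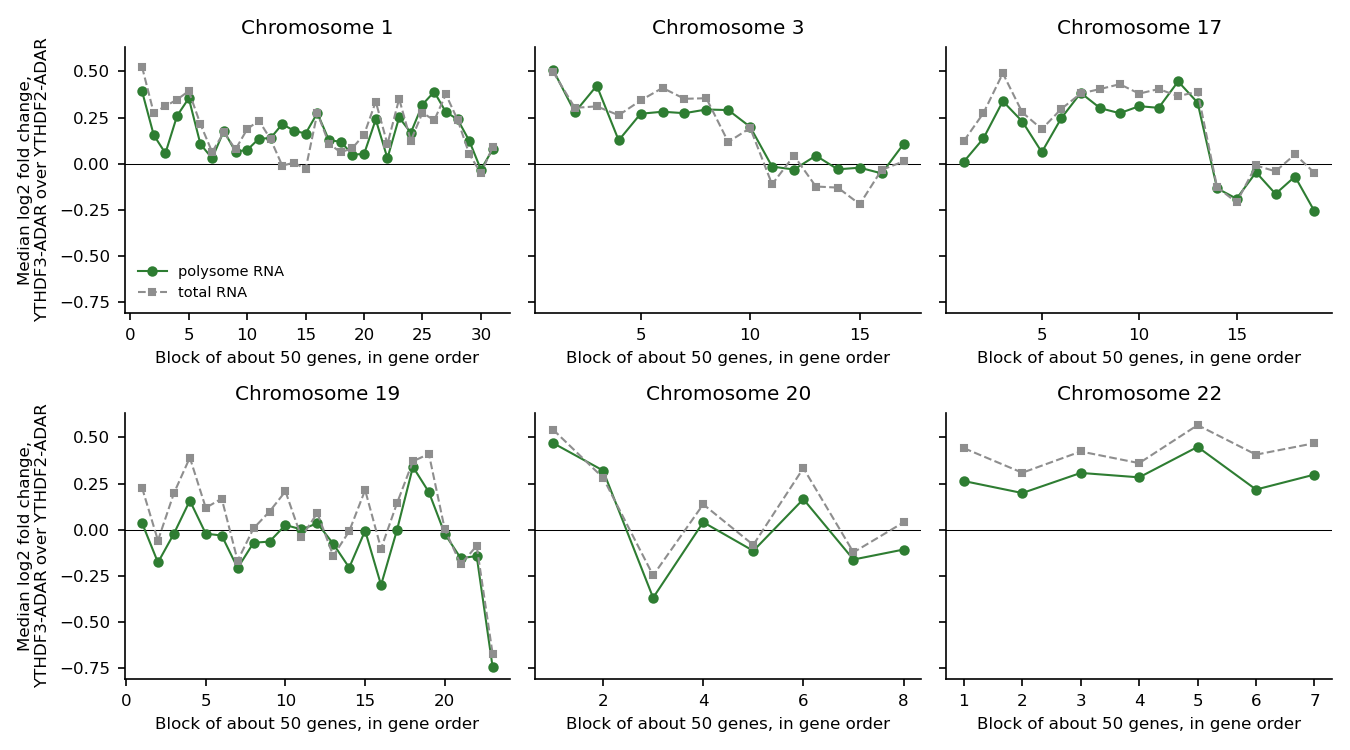
Median log2 fold change of YTHDF3-ADAR over YTHDF2-ADAR (y axis) in successive blocks of about 50 protein-coding genes, in gene order (x axis), for 6 chromosomes in polysome RNA (green) and total RNA (grey). Chromosome 22 is above 0 throughout, chromosomes 3 and 17 go from above 0 to around or below 0 along their length, and the last block of chromosome 19 is at -0.74 on polysomes.

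Most rises on polysomes were also called in total RNA of the same lines, while most falls were not. Of the 3634 genes called higher on polysomes 2868 were called higher in total RNA too. Of the 3093 called lower 1332 were called lower there, and 1 gene was called in opposite directions. Over those 3093 genes the medians in total RNA were also below 0, at -0.225, -0.397 and -0.44 in YTHDF3-ADAR replicates 1, 2 and 3. The test of the difference between the fractions called 0 genes. A missing call in total RNA therefore does not show a fall limited to polysomes. In all, total RNA gave 4085 genes higher (15.2%) and 2028 lower (7.57%). Across genes the fold changes of both fractions had r of 0.85. For the shares of counts per gene class, an exact permutation test of 3 against 3 cannot give a two-sided p below 0.1. Protein-coding genes took 89.6% ± 0.97 of counts in YTHDF3-ADAR polysomes and 88.9% ± 0.83 in YTHDF2-ADAR polysomes (SD, n = 3 each, exact permutation p = 0.4), and the mitochondrial genome 0.598% ± 0.338 and 0.953% ± 0.125 (exact permutation p = 0.3).

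Genes were then grouped by the authors' deposited editing tables, which list for each fusion the genes with editing sites. Of 4195 protein-coding genes listed for both fusions, 527 were higher and 575 lower on YTHDF3-ADAR polysomes (median -0.04). Of 2777 listed for YTHDF3-ADAR only, 467 were higher and 388 lower (median -0.01). Of 316 listed for YTHDF2-ADAR only, 27 were higher (8.54%, against 17.4%) and 80 lower (25.3%, against 13.1%), with a median of -0.18 and library medians of -0.08, -0.22 and -0.24. A site can be listed only where reads cover it, so membership of these lists is not independent of the level in each line. Genes with at least 10 listed sites for YTHDF3-ADAR (1721) had a median of -0.01, and those with at least 10 for YTHDF2-ADAR (582) a median of 0.05. By total exon length, the shortest of 5 equal classes had 16.3% lower and 15.2% higher (median -0.04), and the longest 9.06% lower and 18.1% higher (median 0.07).

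Marker genes were read to check the cell type. All 8 markers of HEK293T cells were detected, with summed levels, here relative to all counts without TMM scaling, of 704 to 1250 CPM in YTHDF3-ADAR and 791 to 910 CPM in YTHDF2-ADAR polysomes, and 4 of them were higher (KRT8, KRT18, NES and PAX2). Endothelial and liver markers were each below 1 CPM in all 6 libraries, as was PTPRC of leukocytes, while the leukocyte sum, mostly CD68, was 3.23 to 3.87 CPM in YTHDF3-ADAR and 2.56 to 3.29 CPM in YTHDF2-ADAR polysomes. The sum of 3 fibroblast collagens was 20.6 to 31.5 CPM in YTHDF3-ADAR and 5.51 to 7.74 CPM in YTHDF2-ADAR polysomes, nearly all of it COL1A1, while COL1A2 was below 1 CPM throughout. Of the erythroid pair, HBA1 was higher, at 11.5, 17.2 and 19.1 CPM against 6.65, 5.42 and 5.28 CPM, and HBB was below 1 CPM. The part of these markers in the other results was not tested.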

How the data were processed

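Raw counts per gene were taken as deposited; per the submitters' processing notes, reads had been handled with STAR 2.7.7 and featureCounts 2.0.1 on GRCh38 (hg38), with the annotation release and strand setting not given in the sources used here. Libraries were made from 150 ng of RNA with a strand-specific kit after ribosomal RNA depletion, per the labels' protocols. A second table deposited by the authors holds a mean normalized signal per gene from DESeq2, and only its gene symbols and gene classes were used. The authors' deposited editing tables give, per gene and fusion, a number of sites and a score that sums editing over sites, with replicates pooled.

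All 18 libraries (6 groups of 3) were fitted together in edgeR 4.0.16 (R 4.3.3; quasi-likelihood, robust, TMM scaling, genes passing filterByExpr with a minimum count of 10), so that the groups share the estimate of spread. Of 60675 human gene rows 26804 were tested, and 1 row naming no human gene was left out. Standard errors of log2 fold changes were derived from the F statistic. Library values use log2(CPM + 0.5). Chi-square tests within each of the 2 polysome groups found no 2 libraries that could be one library deposited more than once. Pairs across these groups and the other libraries were not tested. In a test of the polysome comparison on simulated data, the fit recovered 47.8% of 67 genes with a 1.5-fold change, 88.1% of 67 with a 2-fold change and all 66 with a 4-fold change. DESeq2 1.42.0 and limma 3.58.1 (voom with sample weights) were alternatives, along with other scalings, filters and sample sets. Intervals and errors cover the spread between libraries only.

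Gene lists and members were chosen with earlier results of these data known. Named genes were the fusion genes, the 12 highest and 12 lowest called protein-coding genes without overlap whose mean log2 CPM reached 2 (3 each for other classes), the 6 most abundant called genes each way, and up to 2 called members per list each way; some of these genes are not reported here. RPS6, RPL39, RPL3, GAPDH and SON, the markers and the mitochondrial genes not called were named outside that rule after their values were seen. A planned comparison by protein length used total exon length in its place. Starts were matched by symbol to a RefSeq promoter table, which had 12109 of the 15675 tested protein-coding genes.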

Additional observations from a re-analysis of the deposited data

How the results depend on the processing

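The size of both call counts depended on the processing, while more genes were called higher than lower in each alternative. With normalization factors left out, 1333 genes were lower; this setting, by its construction, raised the median of all genes. With edgeR on the 6 polysome libraries 1960 genes were higher and 721 lower, and with DESeq2 on them 1766 were lower. Sample weights, which gave YTHDF3-ADAR replicate 1 a weight of 0.11, gave 6587 higher and 6375 lower. Without the filter on low counts 1826 were lower, over more genes tested. At least 2-fold were 1899 higher and 601 lower. Leaving out 1 library gave 1623 to 5813 higher and 1142 to 5611 lower, with the most calls without YTHDF3-ADAR replicate 1. DESeq2 size factors in edgeR, DESeq2 over 18 libraries and edgeR on the 9 polysome libraries stayed within 1.5 times of both counts. Except where named, the cause was not tested.

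Replicate numbers are shared between the lines, but same-numbered libraries did not deviate together (r of deviations 0.0747, -0.0208 and -0.0944), and not every library correlated best with its own number. A fit with the replicate number as a block on the 6 libraries gave 1332 higher and 468 lower.

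The median of zinc finger genes was -0.111 without normalization factors, -0.202 on the 6 libraries, -0.209 without the filter and between -0.278 and -0.208 with 1 library left out. The median of chromosome 22 was 0.391 without normalization factors. The medians of ribosomal protein and mitochondrial genome mRNAs moved by less than 1 SD of their YTHDF3-ADAR library medians. Those library medians spread widely, so this limit was loose for both groups, and it was tight for zinc finger genes. The ribosomal protein median ran from -0.837 with sample weights to -0.42 without YTHDF3-ADAR replicate 2. The mitochondrial one ran from -1.486 without YTHDF3-ADAR replicate 3 to -0.826 without replicate 2. ADAR, not called, turned to 0.079 without normalization factors, and ran from -0.118 to 0.033 with 1 library left out. OGA, not called, was 0.043 without normalization factors and 0.054 with sample weights, and ran from -0.254 to 0.059. MT-RNR2, not called, ran from -1.265 to 0.187. Of 150 named genes that were called, 61 lost the call in at least 1 of the 6 fits with 1 library left out, 58 of them without YTHDF3-ADAR replicate 2 and 2 without replicate 1. Calls in total RNA stayed within 1.5 times, and 0 genes were called for a difference between the fractions in each of 4 alternatives, all of them unpaired. Depth was not the limit for abundant genes, where replicates differed beyond counting error, and it limits genes near 1 CPM.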

Other observations

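Gene classes outside the lists went different ways. Of 269 small nucleolar RNAs, which guide the modification of ribosomal RNA and are trimmed from introns, 57 (21.2%, against 11.5% of all genes) were lower and 18 (6.69%) higher in YTHDF3-ADAR polysomes, with a median log2 fold change of -0.54. Of 2141 processed pseudogenes, copies of mRNAs that can share reads with their parent genes, 176 (8.22%, against 11.5% of all genes) were lower and 27 (1.26%) higher, with a median of -0.22. Long noncoding RNAs were split, with 709 of 6240 higher (11.4%) and 534 lower (8.56%) and a median of 0.00.

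Protein-coding genes listed in neither editing table had 1707 of 8387 higher (20.4%, against 17.4% of all protein-coding genes) and 1007 lower (12%, against 13.1%), with YTHDF3-ADAR library medians of -0.01, 0.13 and 0.11 in replicates 1, 2 and 3. The median editing per site in polysome RNA, from the authors' deposited tables and over genes listed for both fusions, was 1.58% for YTHDF3-ADAR and 1.14% for YTHDF2-ADAR, with no replicate values to set an error.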
